A study of Danio rerio with 4 samples.

Results

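Zebrafish H3K27ac sites that lie on scaffolds, the assembled sequences outside chromosomes 1 to 25 and the mitochondrial genome, were examined in nonmyocytes (nonCMs) of regenerating hearts. Peaks of 4 CUT&Tag lists were merged into sites wherever they shared at least 1 bp, and a site was counted as a scaffold site by the name of its sequence alone. This gave 5737 scaffold sites among 51678 sites, or 11.1%, against 45940 sites on chromosomes 1 to 25 and 1 mitochondrial site. The nonCMs came from the injury area of adult hearts at 7 dpa (days post amputation of the ventricular apex, given as days post injury in the labels), with 2 Epi/FB:dnAP-1 libraries, labelled FB:dnAP-1, and 2 control libraries, labelled CTRL. In the methods, fish of both groups carry the driver TgBAC(tcf21:Cre-ERT2) together with a responder in which the ubb promoter and a floxed dsRed precede Flag-tagged dnAP-1. The Epi/FB:dnAP-1 fish were given 4-hydroxytamoxifen (4-HT) before resection to switch on the dominant-negative protein, whereas controls were given ethanol vehicle. The labels give the control genotype as CTRL, tag the control titles WT and name no vehicle, so whether the controls were transgenic fish given vehicle, as in the methods, or wild type is not settled by them. Recombination is driven by tcf21, which is active in the epicardium and fibroblasts, whereas the libraries hold all nonCMs of the injury area. The study calls the libraries of a group biological duplicates, and how many hearts went into each is not given in the sources used here.

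Acetylation of histone H3 at lysine 27 marks active enhancers and promoters. AP-1 is a dimer of Fos and Jun family proteins that binds such elements after injury, and the dominant-negative form blocks it. In CUT&Tag a transposase is led to the mark by an antibody and cuts the DNA beside it, so a peak is a stretch of high fragment coverage. A genome assembly holds its chromosomes, scaffolds whose place in a chromosome is unknown, and, in GRCz11, alternate scaffolds that give another haplotype of a stretch already present in a chromosome. Names of the sequences do not tell the last 2 classes apart, so whether the scaffolds were unplaced could not be checked, and they are called scaffolds throughout. Reads from sequence that occurs more than once in the assembly can be aligned to any of its copies, so the position of a peak in such sequence is uncertain. No gene or sequence of GRCz11 was used, so sites are given by position, and the cell types of the libraries were not checked against markers.

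Values of a group are given for replicate 1 and then for replicate 2. The Epi/FB:dnAP-1 lists held 38429 and 32978 peaks, and the control lists 32638 and 33076. Their peaks on scaffolds numbered 4252 and 3813 in Epi/FB:dnAP-1 hearts, against 2844 and 3497 in controls, which covered 9.83 and 10.6 Mb against 8.85 and 9.53 Mb. Values are coverage after the scaling factor of each library, and every maximum was a whole multiple of a step of 0.68 in both Epi/FB:dnAP-1 lists, against 1.26 and 1.38 in the control lists. Read totals are not in the lists, so the depth is unknown and no counting interval was given. Control replicate 1 stood apart, with the lowest number of scaffold peaks although its number of peaks in all was close to that of the other control. Shares of peaks and of called sites are therefore also given without it.

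The scaffold sites were spread over 1286 scaffolds, with a median of 3 sites and a highest count of 32. A single site lay on 343 of the scaffolds, while 143 scaffolds with at least 10 sites held 1877 sites, or 32.7%. Most sites were on NW_018394835.1, with 32, followed by NW_018394586.1 with 30 and NW_018394727.1 with 29. A tie at 20 sites joined NW_018394637.1, NW_018394696.1, NW_018395074.1 and NW_018395196.1. These 7 scaffolds together held 171 sites, or 2.98%, so no scaffold or small group of scaffolds carried the set. Of the 32 sites of NW_018394835.1, 17 and 18 were called in Epi/FB:dnAP-1 hearts, against 17 and 18 in controls, and 6 were called in all 4 lists. NW_018394586.1 was denser in shared sites, with 15 of its 30 sites called in all 4 lists within its first 385785 bases.

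The names of the scaffolds fall into 4 series. Sequences of the NW_018 series held 4859 sites on 886 scaffolds, or 84.7%, and the NW_003 series held 712 sites on 332 scaffolds. The NW_008 and NW_001 series held 94 sites on 52 scaffolds and 72 sites on 16 scaffolds. NW_018 scaffolds carried 5.48 sites each on average, whereas the other 400 scaffolds carried 2.19 sites each, with 878 sites in all. The lengths of the scaffolds were not used here, so a number of sites per length could not be given. The split by series was made after the values were seen, and is shown because several results below run in opposite directions on its 2 sides.

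Scaffolds took a larger share of the peaks in the Epi/FB:dnAP-1 lists. Of all peaks, 11.1% and 11.6% lay on scaffolds in the Epi/FB:dnAP-1 lists, against 8.71% and 10.6% in the control lists. Both Epi/FB:dnAP-1 values were above both control values, and the means were 11.3 ± 0.352% and 9.64 ± 1.31% (SD, n = 2 each). The difference of 1.67 percentage points gave p = 0.33 in a two-sided exact permutation test, the smallest p that 2 libraries against 2 can give, so the design cannot pass 0.05. Without control replicate 1 the difference was 0.741 percentage points. The share of total signal on scaffolds did not separate the groups, with 10.3% and 10.0% in Epi/FB:dnAP-1 hearts, against 9.22% and 10.7% in controls (exact permutation test, p = 1). In these bulk libraries, fewer cells that carry the mark and less mark per cell cannot be told apart.

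Counted over the merged sites, 70.9% and 65.1% of the scaffold sites were called in the Epi/FB:dnAP-1 lists, against 48.5% and 59.0% in the control lists. The groups did not overlap, and control replicate 1 was the lowest of the 4. Of the sites on chromosomes, 66.7% and 59.7% were called in Epi/FB:dnAP-1 hearts, against 61.0% and 59.1% in controls, a narrower range. When the chromosome share of each library was subtracted from its scaffold share, the excess was 4.20 and 5.35 percentage points in Epi/FB:dnAP-1 libraries, against -12.5 and -0.161 in controls (difference 11.1, exact permutation test, p = 0.33). Much of this difference came with control replicate 1, since without that library it was 4.94 percentage points, and without control replicate 2 it was 17.3. The difference in the scaffold share itself was 14.2 percentage points, and 9.003 without control replicate 1. The scaffold share was therefore above the chromosome share in both Epi/FB:dnAP-1 libraries and below it in both controls, by a small margin in control replicate 2.

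This pattern was that of the NW_018 scaffolds. Their sites were called in 72.2% and 67.5% of cases in Epi/FB:dnAP-1 libraries, against 46.1% and 58.3% in controls, a difference of 17.6 percentage points that was 11.6 without control replicate 1. On the other scaffolds the shares were 63.7% and 51.6% in Epi/FB:dnAP-1 hearts, against 61.7% and 62.8% in controls, and the groups overlapped (difference -4.61 percentage points, exact permutation test, p = 1), with a difference of 1.42 without Epi/FB:dnAP-1 replicate 2. Relative to the chromosome sites of the same library, the other scaffolds stood at -3.03 and -8.10 percentage points in Epi/FB:dnAP-1 and at 0.732 and 3.63 in controls, the reverse of the NW_018 scaffolds, at 5.50 and 7.79 in Epi/FB:dnAP-1 hearts, against -14.9 and -0.846 in controls. As a share of all peaks, NW_018 scaffolds took 9.50% and 10.1% in Epi/FB:dnAP-1 hearts, against 6.99% and 8.80% in controls, whereas the other scaffolds took 1.57% and 1.44% in Epi/FB:dnAP-1 hearts, against 1.73% and 1.77% in controls (difference -0.248 percentage points, exact permutation test, p = 0.33). The NW_018 difference in the share of peaks was 1.92 percentage points, and 1.01 without control replicate 1.

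**Figure D1:**
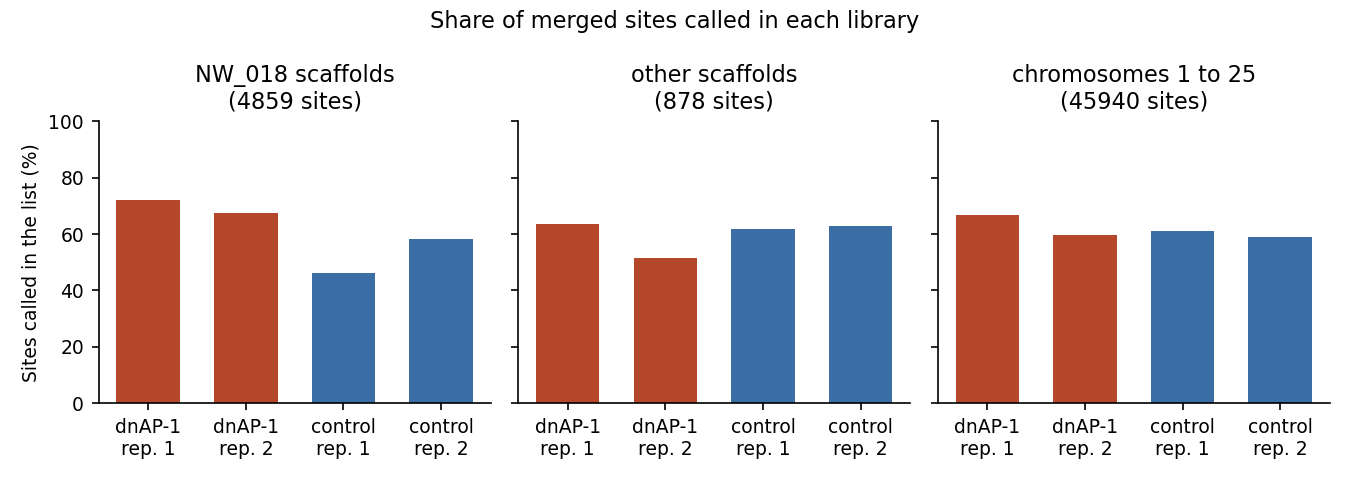
Share of merged sites called in each library (%, y axis), for sites on NW_018 scaffolds, on other scaffolds and on chromosomes 1 to 25; each bar is 1 library, Epi/FB:dnAP-1 in red and control in blue. On NW_018 scaffolds both Epi/FB:dnAP-1 bars (72.2% and 67.5%) stand above both control bars (46.1% and 58.3%), and on the other scaffolds they do not (63.7% and 51.6% against 61.7% and 62.8%).

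Presence patterns over the 4 lists showed where the difference lay. Scaffold sites that both Epi/FB:dnAP-1 lists and no control list held numbered 731, or 12.7% of the scaffold sites, against 3217 sites or 7.00% on chromosomes, and 7.64% of all sites of the series. Control-only sites, which both controls and neither Epi/FB:dnAP-1 library held, numbered 163, or 2.84%, against 1409 or 3.07% on chromosomes and 3.04% of all sites, a share near the background. The pattern of both Epi/FB:dnAP-1 lists with control replicate 2 held 484 scaffold sites, or 8.44%, against 4.81% on chromosomes. Sites of control replicate 1 alone were fewer on scaffolds, with 367 or 6.40% against 11.2% on chromosomes, whereas those of control replicate 2 alone had shares of 10.7% and 10.2%. All 4 lists shared 1769 scaffold sites, or 30.8%, and 15741 chromosome sites, or 34.3%. A single list held 32.9% of the scaffold sites.

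Most sites specific to Epi/FB:dnAP-1 were again on NW_018 scaffolds, where 687 sites or 14.1% had this pattern, against 44 sites or 5.01% on the other scaffolds. Control-only sites made up 2.41% on NW_018 scaffolds, with 117 sites, and 5.24% on the others, with 46 sites. Chromosome 4 as a whole was closer to the second set, with 3.52% of its sites specific to Epi/FB:dnAP-1 and 7.50% to controls. Replicates shared their sites on scaffolds about as well as on chromosomes. Of scaffold sites called in either Epi/FB:dnAP-1 list, 69.7% were called in both, against 67.5% on chromosomes, and for the control lists the shares were 50.5% and 51.6%. Leaving out a list loosens the pattern for every site, so the counts are set beside the chromosomes. Without control replicate 1 the scaffold sites specific to Epi/FB:dnAP-1 numbered 956, or 17.6% against 13.3% on chromosomes. Without control replicate 2 the number was 1227, or 23.7% against 13.2%, and without Epi/FB:dnAP-1 replicate 2 it was 1344, or 24.5% against 17.3%. Control-only sites numbered 789 without control replicate 1, or 14.6% against 15.1% on chromosomes. They numbered 545 without control replicate 2, or 10.5% against 15.99%, and 253 without Epi/FB:dnAP-1 replicate 1, or 4.88% against 5.90%.

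**Figure D2:**
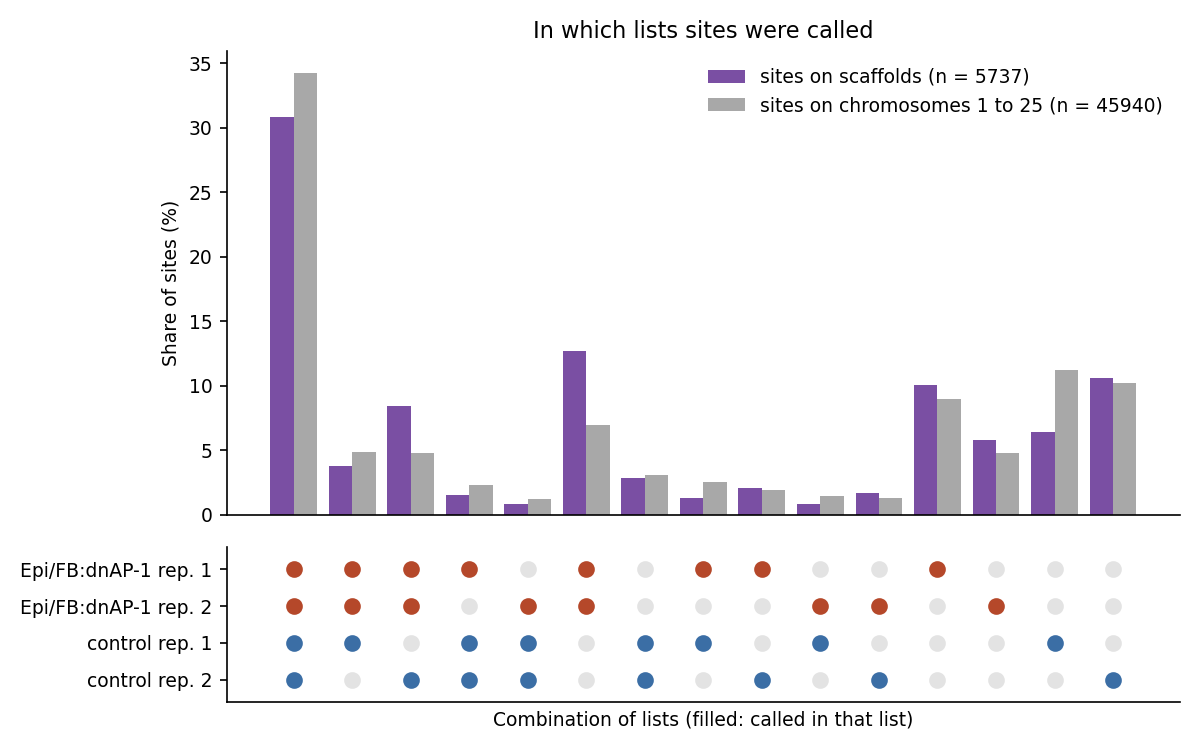
Share of sites (%, y axis) with each combination of lists, for scaffold sites (purple) and sites on chromosomes 1 to 25 (grey); filled dots under the bars mark the lists in which the sites were called. The combination of both Epi/FB:dnAP-1 lists alone holds 12.7% of the scaffold sites and 7.00% of the chromosome sites.

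Peaks on scaffolds were narrower than peaks on chromosomes in every list. In Epi/FB:dnAP-1 the median width was 1921.5 and 2359 bp on scaffolds, against 2364 and 2937.5 bp on chromosomes. In controls it was 2713.5 and 2382 bp on scaffolds, against 3201 and 2704 bp on chromosomes. The mean difference was -457.6 ± 107 bp (SD, n = 4), below 0 in 4 of 4 libraries, with p = 0.13 in a two-sided exact sign-flip permutation test, the smallest p that 4 libraries allow. The difference did not separate Epi/FB:dnAP-1 from controls (exact permutation test, p = 0.667). Merged sites were narrower too, with a median of 2881 bp on scaffolds and 3462 bp on chromosomes, and lay farther apart, with a median gap between neighbours of 14106 bp against 8518 bp.

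The total signal of a scaffold peak ranked somewhat lower in its list. Median percentiles of total signal, where 100 is the strongest peak of a list, were 47.5 and 45.6 on scaffolds against 50.4 and 50.7 on chromosomes in Epi/FB:dnAP-1. In controls they were 44.3 and 46.0 on scaffolds against 50.6 and 50.5 on chromosomes. The mean difference was -4.71 ± 1.43 percentile points (SD, n = 4; exact sign-flip test, p = 0.13), and again the 4 libraries pointed one way. Median peak height ran the other way. The median maximum, on the scale of the deposited coverage, was 24.48 and 25.84 on scaffolds against 22.44 and 25.16 on chromosomes in Epi/FB:dnAP-1 hearts, and 23.94 and 20.7 on scaffolds against 20.16 and 17.94 on chromosomes in controls. After each log2 maximum was set relative to the median of its list, scaffold peaks were higher by 0.13 and 0.04 in Epi/FB:dnAP-1 and by 0.25 and 0.21 in controls, a mean of 0.15 ± 0.09 on the log2 scale (SD, n = 4; exact sign-flip test, p = 0.13). The upper quartile of the centred log2 maximum was lower on scaffolds in every list. In Epi/FB:dnAP-1 libraries it was 0.64 and 0.55 on scaffolds against 0.80 and 0.77 on chromosomes. In controls it was 0.70 and 0.58 on scaffolds against 0.75 and 0.65 on chromosomes. By the medians alone, scaffold peaks were thus shorter in length and slightly taller. With chromosome 4 left out of the chromosomes, the mean height difference was 0.095. Maxima are whole multiples of the step of a list, so height differences this small span few steps.

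These medians also belonged to the NW_018 scaffolds. There the width difference from chromosomes was -513 and -652.5 bp in Epi/FB:dnAP-1 hearts, against -617 and -368 bp in controls. Peaks on the other scaffolds were wider than chromosome peaks in Epi/FB:dnAP-1, by 259 and 257.5 bp, and differed by -3.5 and 37 bp in controls (mean 137.5 ± 140 bp, SD, n = 4; exact sign-flip test, p = 0.25). Their median log2 maximum was below that of chromosomes in 4 of 4 lists, with differences of -0.46 and -0.21 in Epi/FB:dnAP-1 hearts, against -0.09 and -0.12 in controls (mean -0.22, exact sign-flip test, p = 0.13), whereas NW_018 peaks were above it, with a mean of 0.16. Median percentiles differed from chromosomes by a mean of -5.30 points on NW_018 scaffolds and -0.233 points on the others, where the 4 lists took both signs.

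**Figure D3:**
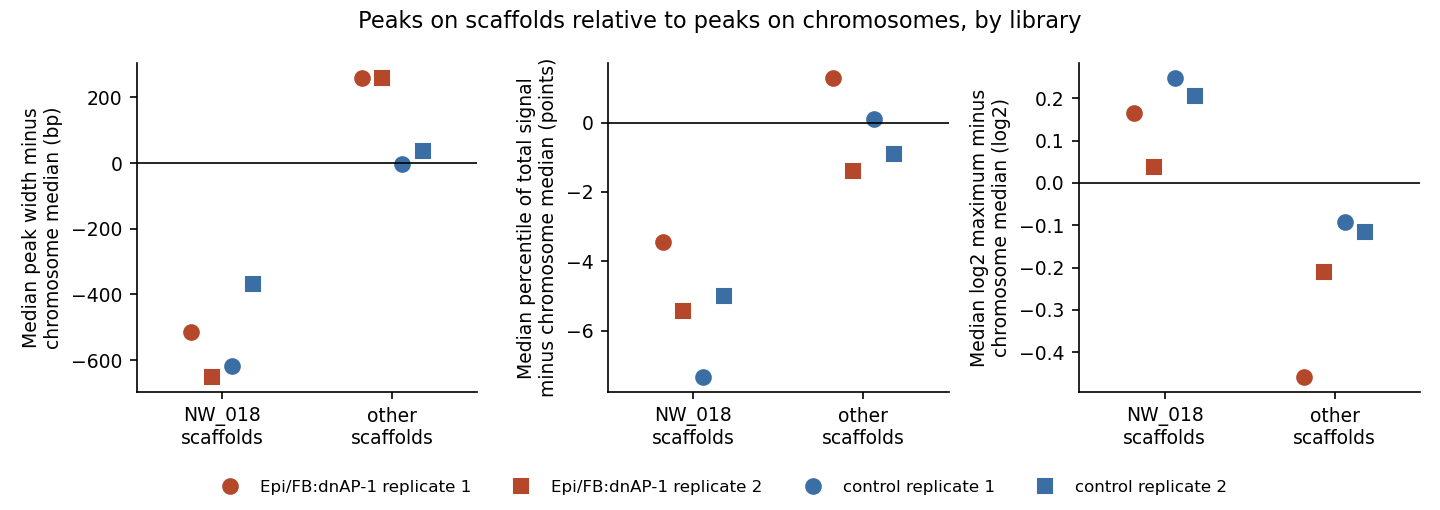
Median peak width (bp), percentile of total signal (points) and list-centred log2 maximum of scaffold peaks, each minus the chromosome median of the same list, for NW_018 and other scaffolds; each point is 1 library, and the line at 0 is the chromosome median. All 4 NW_018 points lie below 0 for width and above 0 for maximum, and for the other scaffolds all 4 lie below 0 for maximum.

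The 2 highest peaks of each list also fell on scaffolds. In each of the 4 lists the highest maximum was at NW_018395067.1, in a site from 135252 to 137897, with 1557.2 and 1210.4 in Epi/FB:dnAP-1 hearts, against 2473.38 and 2181.78 in controls. The next highest was always at NW_003336846.1, in a site from 2 to 2261, with 1521.84 and 1181.16 in Epi/FB:dnAP-1 hearts, against 2440.62 and 2151.42 in controls. The first exceeded the second by a ratio of 1.02 in both Epi/FB:dnAP-1 libraries and 1.01 in both controls, so these sites on different scaffolds had almost the same height in every library. The third peak of each list was on a chromosome, and the first exceeded it by a ratio of 1.60 and 1.62 in Epi/FB:dnAP-1 hearts, against 1.32 and 1.48 in controls. Whether the 2 sites share sequence was not tested. Of all scaffold peaks, 0.447% and 0.367% were among the top 1% of their list by maximum in Epi/FB:dnAP-1 hearts, and 1.09% and 0.886% in controls.

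By total signal the strongest scaffold site was NW_001884441.4 from 15 to 48852, a site of 48838 bp that was 1 unbroken peak in each list. It ranked first or within the top 1% in every list, with maxima of 366.52 and 286.96 in Epi/FB:dnAP-1 hearts, against 661.5 and 476.1 in controls. The next was NW_001884442.4 from 2 to 36909, with maxima of 314.84 and 242.08 in Epi/FB:dnAP-1 hearts, against 555.66 and 488.52 in controls. Both sites began within 100 bp of the first base of their scaffold. Sites of this kind numbered 109, on 8.48% of the scaffolds. All 4 lists held 57 of them, or 52.3%, against 30.8% of the scaffold sites and 33.9% of all sites. Their median percentiles of total signal, by the highest peak of a site, were 66.0 and 73.4 in Epi/FB:dnAP-1 hearts, against 69.8 and 71.9 in controls. Over all scaffold sites these medians were lower, at 48.0 and 45.9 in Epi/FB:dnAP-1 hearts, against 44.4 and 46.2 in controls.

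Sites specific to Epi/FB:dnAP-1 were weaker and narrower than shared ones. The 731 sites lay on 449 scaffolds, at most 9 on a scaffold, with a median width of 2062 bp and a median of the mean percentile of 29.4, against 3386 bp and 62.2 for the 1769 shared scaffold sites. On chromosomes the sites of this pattern had a similar median percentile of 28.4 and a median width of 2389 bp. Shared chromosome sites had 69.5 and 4464 bp. A merged site spans the peaks of every list that called it, so part of the gap in width follows from the merging. Mean percentiles were taken over the lists that called a site. A pattern defined by missing calls favours weak sites, so the gap in percentile was partly set by that choice. The strongest scaffold site of the pattern was NW_018395052.1 from 285872 to 292395. It had maxima of 67.32 and 63.92 in Epi/FB:dnAP-1 at percentiles 93.7 and 89.1, and no peak in either control. NW_018395018.1 from 195456 to 200283 had maxima of 35.36 and 42.16 in Epi/FB:dnAP-1, and NW_018395006.1 from 43869 to 46114 had 46.24 and 47.6, again with no peak in controls. That no peak was called there does not give a level of 0, since the lists hold only coverage above the threshold.

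The 163 control-only sites were wider, with a median of 3627 bp. Control-only sites on chromosomes were also wider, at 4090 bp against 2389 bp for those specific to Epi/FB:dnAP-1. The 163 scaffold sites lay on 144 scaffolds. The strongest was NW_003336730.1 from 59 to 15879, which had no peak in Epi/FB:dnAP-1 and maxima of 22.68 and 30.36 in controls, in 2 and 3 separate peaks. NW_018394599.1 from 462419 to 469354 followed with 21.42 and 16.56 in controls, and NW_018394646.1 from 319934 to 329015 with 25.2 and 15.18. These maxima were lower, on the deposited scale, than those of the 3 sites named for Epi/FB:dnAP-1. Mean percentiles of total signal were 93.7, 92.9 and 91.5, and those of the Epi/FB:dnAP-1 sites were 91.4, 82.6 and 77.5. The sites of both patterns were chosen by these percentiles, which come from the lists of different groups, so they give no comparison between the patterns.

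Counts of called sites were also compared between groups scaffold by scaffold. Among the 474 scaffolds with at least 5 sites, both Epi/FB:dnAP-1 counts were above both control counts on 197, or 41.6%, and both were below on 27, or 5.70%. Over all 499 sequences with at least 5 sites, the 25 chromosomes included, the shares were 41.7% and 5.61%. On chromosomes alone both Epi/FB:dnAP-1 counts were above on 11 of 25, or 44.0%, and below on 1, or 4.00%. The scaffold shares were near these. A chromosome held 1837.6 sites on average and a scaffold at most 32, so ties between counts are not equally likely. Most of the 499 sequences are the 474 scaffolds themselves, so neither nearness shows that scaffolds and chromosomes behave alike. On scaffolds with at least 10 sites the median share of sites called was 72.7% and 69.2% in Epi/FB:dnAP-1 hearts, against 50% and 60.0% in controls. The scaffolds named next were chosen after their values were seen, as those with the widest gaps between groups, so their gaps are a description. On NW_018394702.1, 11 and 10 of 11 sites were called in Epi/FB:dnAP-1 libraries, against 3 and 2 in controls, and 7 sites were specific to Epi/FB:dnAP-1. NW_018395052.1, which holds the strongest such site, had 14 and 15 of 17 sites in Epi/FB:dnAP-1 hearts, against 7 and 4 in controls. On NW_018394948.1, 5 and 5 of 6 sites were called in Epi/FB:dnAP-1 and none in controls, with maxima from 17 to 33.32.

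The reverse was seen on fewer scaffolds. On NW_008805582.2 none of 5 sites was called in Epi/FB:dnAP-1 libraries, against 5 and 4 in controls, and the control maxima of these sites ran from 8.82 to 23.46. On NW_018394467.1 none of 7 sites was called in Epi/FB:dnAP-1 libraries, against 2 and 6 in controls, so the control replicates were themselves far apart. NW_018394749.1 had 7 and 6 of 15 sites in Epi/FB:dnAP-1 libraries against 11 and 11 in controls, and 6 of its sites were called in all 4 lists. NW_003336270.3 had 2 and 2 of 6 sites in Epi/FB:dnAP-1 libraries against 5 and 5 in controls.

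**Figure D4:**
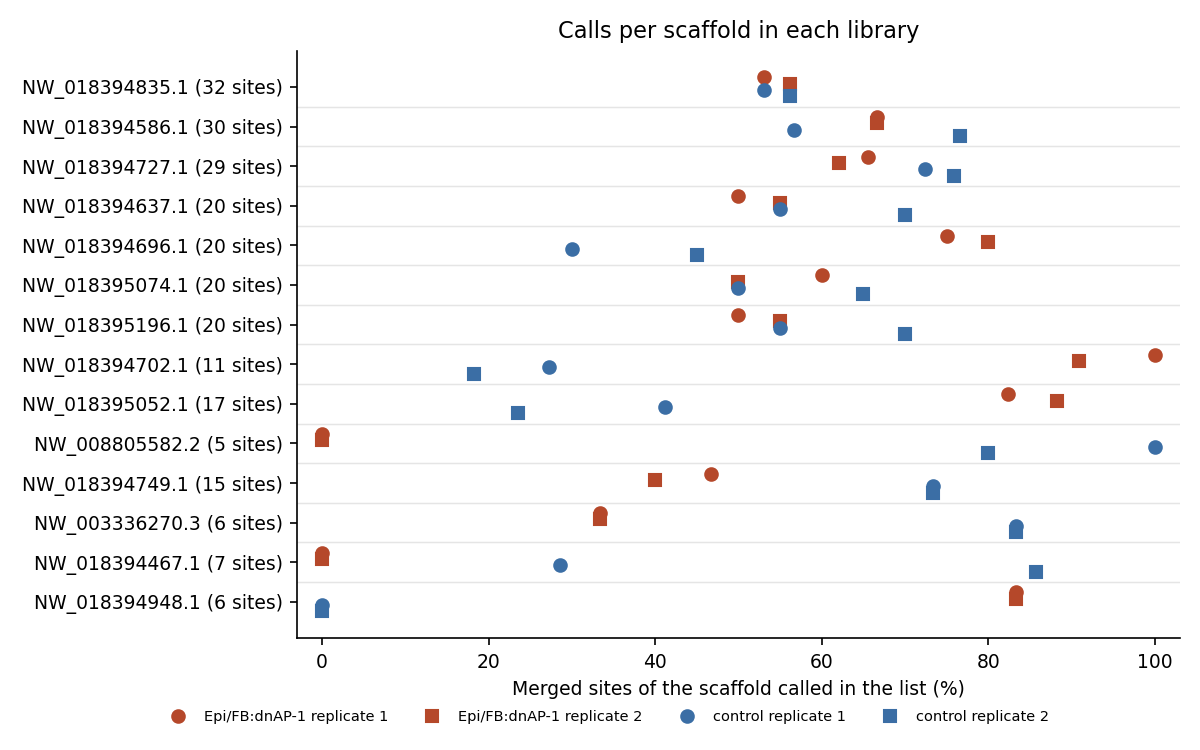
Share of the merged sites of a scaffold that were called in each library (%, x axis), for the 7 scaffolds with most sites (top) and the other scaffolds named for wide gaps between groups; each point is 1 library. On NW_018394702.1 Epi/FB:dnAP-1 lies at the right, with 11 and 10 of 11 sites against 3 and 2 in controls, and on NW_008805582.2 it lies at 0.

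At the 1769 scaffold sites called in all 4 lists the height of the peaks could be compared directly. Each log2 maximum was set relative to the median of its library over all 17511 shared sites, and limma was fitted over all of them with Benjamini-Hochberg adjustment. The median of the log2 difference, Epi/FB:dnAP-1 minus control, was -0.09 over scaffold sites, -0.01 over chromosome sites and -0.02 over all. Both Epi/FB:dnAP-1 values lay above both control values at 298 scaffold sites, or 16.8%, against 24.5% of all shared sites, and below at 612, or 34.6%, against 29.8%. By limma 41 scaffold sites were higher in Epi/FB:dnAP-1, or 2.32% against 3.79% of all shared sites, and 187 were lower, or 10.6% against 9.03%, at an adjusted p under 0.05. This split rests on the centring. On the deposited scale, where the median over all sites is 0.34, 183 scaffold sites were higher, or 10.3% against 18.5% on chromosomes. There 87 were lower, or 4.92% against 3.69%. In steps, where that median is 1.29, 1527 were higher, or 86.3% against 87.5% on chromosomes. Only 6 were lower in steps, or 0.339% against 0.159%. The number called also rests on both Epi/FB:dnAP-1 libraries, since it fell when either was left out, on scaffolds and chromosomes alike. The median difference over scaffold sites was -0.08 without Epi/FB:dnAP-1 replicate 1 and -0.10 without Epi/FB:dnAP-1 replicate 2. It was -0.13 without control replicate 1 and -0.07 without control replicate 2. On chromosomes these medians were -0.002, -0.014, 0.005 and -0.045.

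The share of lower sites was higher in each of the other series than in NW_018. On NW_003 scaffolds 83 of 235 shared sites, or 35.3%, were lower and 6 were higher, and the median difference was -0.31. On NW_001 scaffolds 8 of 14 were lower and all 14 differences were below 0, with a median of -1.0, and on NW_008 scaffolds 5 of 32 were lower and 1 higher, with a median of -0.17. NW_018 scaffolds had 91 of 1488 lower, or 6.12%, and 34 higher, or 2.28%, with a median of -0.07. On chromosomes 8.86% of the shared sites were lower and 3.96% higher, and over all shared sites 9.03% and 3.79%. The share of lower sites was thus below that of chromosomes on NW_018 scaffolds and above it in each of the other series. Of the 187 lower calls on scaffolds, 129, or 69.0%, had a mean list-centred log2 maximum under 0. On chromosomes 80.6% of the lower calls did. Such levels were common among all shared sites, whether called or not. On scaffolds 9.61% of the shared sites lay at levels up to -1 and 47.8% from -1 to 0. On chromosomes these shares were 13.2% and 36.6%.

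The largest differences above 0 were at NW_018 sites. NW_018395089.1 from 138903 to 145711 had maxima of 57.12 and 51 in Epi/FB:dnAP-1 libraries, against 16.38 and 15.18 in controls. The groups were far apart, with a log2 difference of 1.42 ± 0.24 (SE, limma adjusted p = 7.31e-05). At NW_018395052.1, the site from 300554 to 305638 had 65.96 and 55.08 in Epi/FB:dnAP-1 libraries against 20.16 and 16.56 in controls (1.37 ± 0.23 on the log2 scale, limma adjusted p = 5.71e-05), some kilobases from the strongest site specific to Epi/FB:dnAP-1. NW_018394591.1 from 88738 to 91597 had 70.04 and 74.12 in Epi/FB:dnAP-1 libraries against 25.2 and 20.7 in controls (1.30 ± 0.21, limma adjusted p = 2.39e-05). The next were NW_018395180.1 from 73480, at 1.12, and NW_008805363.1 from 2, at 1.08. None of the first 4 passed when the mean signal per base replaced the maximum, and NW_018395180.1 then had -0.083. Without either Epi/FB:dnAP-1 library none of the 5 passed either.

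The largest differences below 0 were mostly at NW_003 sites. NW_003336802.1 from 11071 to 11892 had maxima of 36.04 and 38.08 in Epi/FB:dnAP-1 libraries, against 123.48 and 115.92 in controls (log2 difference -2.05 ± 0.17, SE, limma adjusted p = 8.05e-11). Another site of that scaffold, from 5 to 1605, had 29.92 and 30.6 in Epi/FB:dnAP-1 libraries against 90.72 and 89.7 in controls, a difference of -1.93. Both replicates of each group lay close together at these sites. NW_018394709.1 from 6 to 10257 had 12.92 and 17.68 in Epi/FB:dnAP-1 libraries against 46.62 and 51.06 in controls (-2.05 ± 0.26, limma adjusted p = 3.52e-07). NW_003337111.1 from 1 to 4565, with 148.92 and 163.2 in Epi/FB:dnAP-1 libraries against 476.28 and 452.64 in controls, and NW_003336809.1 from 1 to 11369, with 313.48 and 283.56 against 914.76 and 858.36, each differed by -1.93. Of these 5 sites, 4 began within 100 bp of the first base of their scaffold. Without Epi/FB:dnAP-1 replicate 1 or replicate 2 the sites at NW_018394709.1 and at NW_003336802.1 from 5 missed the threshold, as did NW_003336802.1 from 11071 without replicate 2 and NW_003336809.1 in steps.

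The brightest shared scaffold sites were all lower in Epi/FB:dnAP-1 relative to the other shared sites. In steps 6 of the 15 were above 0, the highest at 0.72, where the median over all shared sites is 1.29. A mean list-centred log2 maximum over 2 was reached by 15 scaffold sites, or 0.848%, of which 13 were on scaffolds other than NW_018. All 15 passed the limma threshold as lower, with differences from -1.93 to -0.59 and a median of -1.62. On the deposited scale all 15 were still below 0, with a median of -1.26, and in steps 9 were, with a median of -0.30. Fewer sites passed the threshold with 1 Epi/FB:dnAP-1 library left out than with 1 control library left out, on scaffolds and chromosomes alike. In each of these fits the group with 1 library has no spread of its own, and the reason for the contrast was not tested. The size of the difference changed little at NW_003337111.1, at -1.85 without Epi/FB:dnAP-1 replicate 1 and -2.01 without Epi/FB:dnAP-1 replicate 2. At NW_003336809.1 it was -1.99 and -1.87. Chromosomes had 70 sites over this level, or 0.445%, of which 62 were lower, with a median of -1.28, so bright sites on chromosomes moved in the same direction. NW_003336286.1 held 3 of the 15 sites. Its site from 5291 to 8243 had 412.76 and 395.08 in Epi/FB:dnAP-1 libraries against 1159.2 and 1115.04 in controls, a difference of -1.85, and its sites from 982 and from 16202 differed by -1.79 and -1.87. The brightest site of all lists, at NW_018395067.1, differed by -1.11 ± 0.26 (SE, limma adjusted p = 0.00266), and the second brightest, at NW_003336846.1, by -1.13 ± 0.26 (limma adjusted p = 0.00224). Over levels from 0 to 1, which held 696 shared scaffold sites, the median difference was 0.03, against 0.11 on chromosomes, and under -1 it was -0.74 at 170 scaffold sites, against -0.63 on chromosomes. The difference therefore varied with level on scaffolds and chromosomes alike.

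**Figure D5:**
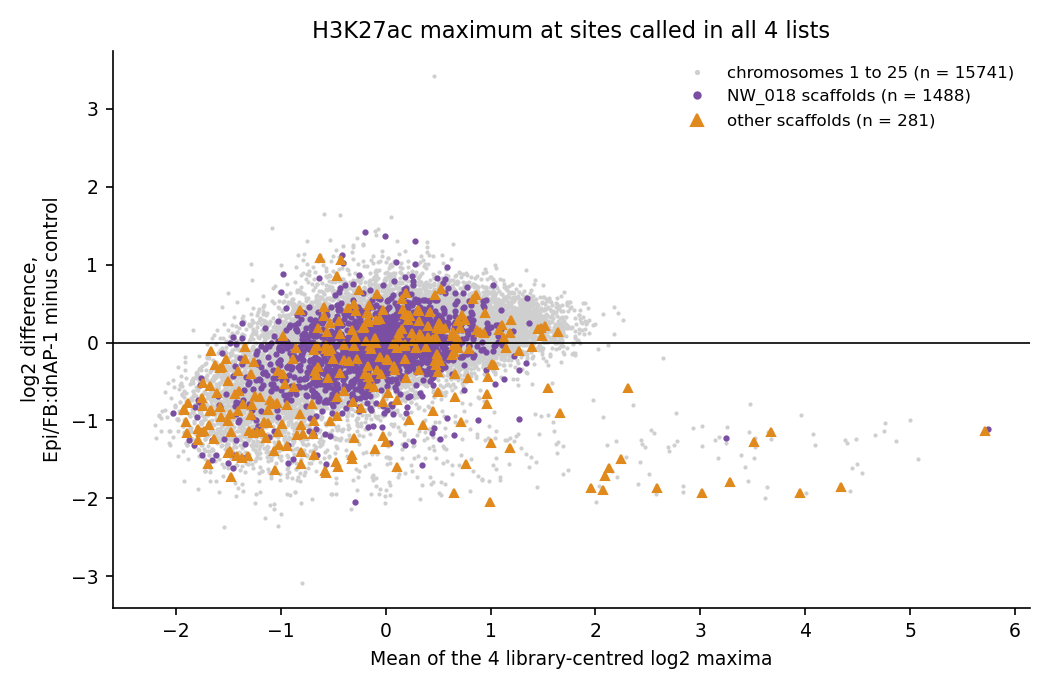
log2 difference in maximum, Epi/FB:dnAP-1 minus control (y axis), against the mean of the 4 library-centred log2 maxima (x axis), at sites called in all 4 lists: NW_018 scaffolds (purple, n = 1488), other scaffolds (orange triangles, n = 281) and chromosomes 1 to 25 (grey, n = 15741). All 15 scaffold sites over a level of 2 lie below 0 on this centred scale. In steps, where the median over all shared sites is 1.29, 6 of them are above 0.

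On scaffolds both replicate pairs resembled each other more than libraries of different groups did, whereas on chromosomes the control pair did so by Pearson's r and not by rank. Across the 1769 shared scaffold sites, Pearson's r of log2 maxima was 0.929 for the Epi/FB:dnAP-1 pair and 0.864 for the control pair, and ranged from 0.741 to 0.781 between groups. Across 15741 chromosome sites the values were 0.948 and 0.874, and from 0.806 to 0.847 between groups. Spearman's rho on scaffolds was 0.908 for the Epi/FB:dnAP-1 pair and 0.784 for the control pair, and from 0.718 to 0.758 between groups. On chromosomes it was 0.951 and 0.863, and from 0.816 to 0.864 between groups, where Epi/FB:dnAP-1 replicate 2 with control replicate 1 had the highest value. Over the 281 sites on scaffolds other than NW_018, Pearson's r was 0.968 for the Epi/FB:dnAP-1 pair and 0.953 for the control pair. Spearman's rho there was 0.964 and 0.904. All of these values are taken over sites of the same libraries and describe agreement only.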

How the data were processed

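H3K27ac CUT&Tag of nonCMs at 7 dpa was analysed in 4 libraries, 2 of Epi/FB:dnAP-1 and 2 of control hearts, grouped by their labels. The authors used cutadapt 2.7 for trimming and Bowtie2 2.2.5 for alignment to GRCz11, then removed duplicates, multiplied coverage by a ChIPseqSpikeFree factor and called peaks per library. The methods name MACS2 and SEACR, and the lists have the columns of SEACR. The deposited values are signal, the summed and the maximum scaled coverage of a peak. An IgG antibody is named in the protocol, and no IgG list was used here.

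Peaks sharing at least 1 bp were merged, and scaffold sites taken by sequence name. Coordinates are GRCz11, counted from 1. Percentiles of total signal were taken within a list. Libraries were compared by two-sided exact permutation or sign-flip tests, and shared sites by limma 3.58.1 (lmFit, eBayes with trend) on log2 maxima without a pseudocount, in R 4.3.3. A Wald test named in the legends of the study needs counts, which the lists do not hold. Merging and fit were tested on simulated data. Named sites were the 3 strongest of each presence pattern, the 3 largest log2 differences in each direction and up to 5 with an adjusted p under 0.05. Members and lists were chosen with earlier results of these data known. Python 3.11.15 with pandas 2.3.3 was used.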

Additional observations from a re-analysis of the deposited data

How the results depend on the processing

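The peak lists give no read totals, so precision is limited by an unknown depth and by 2 libraries per group. A peak covering at least 50% of a site was found in all 4 lists at 18.6% of scaffold sites, instead of 30.8%. With the top 50% of each list, 331 scaffold sites were specific to Epi/FB:dnAP-1 and 84 to controls. These were 12.9% and 3.28% of the fewer scaffold sites then left, close to 12.7% and 2.84% with all peaks. No chromosome share is given for this setting. Leaving out 1 library gave 956 to 1344 sites specific to Epi/FB:dnAP-1, or 17.6% to 24.5%, against 13.1% to 17.3% on chromosomes. It gave 212 to 789 control-only sites, or 3.87% to 14.6%, against 4.49% to 15.99% on chromosomes. Calls by limma on scaffolds numbered 228, and 1533 in steps, 37 with mean signal per base, 122 without the weakest 25% of sites, and 8 to 288 with 1 library left out. By mean signal per base 3 scaffold sites were higher, or 0.170% against 0.140% on chromosomes, and 34 lower, or 1.92% against 1.33%. Without the weakest 25% of sites 34 were higher, or 2.47% against 4.13% on chromosomes, and 88 lower, or 6.39% against 3.48%. In steps 86.3% were higher, against 87.5% on chromosomes. Changes in the number of calls under these 3 settings were thus not confined to scaffolds. With the replicate number as a block there were 255 calls. Of these 52 were higher, or 2.94% against 5.44% on chromosomes, and 203 lower, or 11.5% against 9.50%. Deviations of same-numbered libraries correlated at 0.035, and the main fit used no pairing. This single value cannot show whether same-numbered libraries were prepared together.

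On scaffolds other than NW_018, an alternative chosen after seeing the data, the differences reversed to 137.5 bp in width, -0.22 in log2 maximum and -0.248 percentage points in the share of peaks. The share of Epi/FB:dnAP-1-only sites was 5.01% there and 14.1% on NW_018 scaffolds. The difference in the share of their sites called was -10.6 to 1.42 percentage points with 1 library left out, also chosen after seeing the data, and reversed without Epi/FB:dnAP-1 replicate 2. The difference at NW_018395180.1 reversed to -0.083 with mean signal per base. The causes were not tested. Of 62 values of the main comparisons under alternatives, 46 kept their direction and side of the threshold, or stayed within 1.5 times as counts. The exact tests cannot give a p under 0.05 with these libraries, so for them only the direction could change. Leaving out 1 library gave differences of 0.741 to 2.60 percentage points in the share of peaks and -5.31 to -4.16 percentile points in total signal.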
